A study of Mus musculus with 8 samples.

Results

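The genes described here encode the main receptor of the endocannabinoids in the brain and the enzymes that make them and break them down. They are 7 of the 18193 genes that the probe sets of the array name: Cnr1, Dagla, Daglb, Mgll, Abhd6, Napepld and Faah. They were chosen by name, and every probe set whose annotation names exactly 1 of them was taken, which gave 13 of 45037 probe sets. The samples came from the hippocampus of male 3 × Tg-AD mice, a strain that carries mutant transgenes for amyloid precursor protein, presenilin 1 and tau. The RA group ate a normal diet with 0.5% rosmarinic acid (RA) for 8 months, and the control group ate the same diet without RA. Both groups were 10 months old and carry all the transgenes, and no mice without them were included in these arrays. RNA was hybridised to 4 arrays for the RA group and 4 for the control group. The Methods speak of 4 mice of average weight per group and also of pooled total RNA, and from these statements the number of mice behind each array is unclear. All p-values below therefore reflect only how the arrays of a group scatter, and the number of arrays limits their precision.

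Endocannabinoids are lipid messengers that travel backwards across a synapse. A postsynaptic neuron makes 2-arachidonoylglycerol (2-AG) with a diacylglycerol lipase, and the lipid acts on the CB1 receptor of the presynaptic terminal, where it lowers transmitter release. Monoacylglycerol lipase ends most of this signal in the brain. Anandamide, the other main endocannabinoid, is released from membrane precursors by NAPE-PLD, among other routes, and is broken down by fatty acid amide hydrolase. In the hippocampus CB1 is abundant on the terminals of cholecystokinin interneurons and present at a lower density on excitatory terminals. The study lists retrograde endocannabinoid signaling among the pathway terms of its arrays, so these genes are not an independent choice.

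Most of the probe sets of these genes gave no measure of a difference between the groups. Each value is a log2 summary by FARMS, a factor model of what the probes in a set have in common, which pulls the values to near constancy where such signal is missing. A probe set was counted as unmeasured where its SD over the 8 arrays was at most 0.01. This was so for 10 of the 13 probe sets, whose SDs lay between 7.4e-05 and 0.000214, and 3 probe sets (23.1%) were above the limit, as were 8.34% of all probe sets. The 3 are 1 probe set of Dagla and 2 of Mgll, so that 5 of the 7 genes have no measured probe set. Taken by the probe set with the highest mean, 11.7% of all genes were measured. The probe sets nearest to the limit on either side were the unmeasured Cnr1 1419425_at (0.000214) and the measured Mgll 1453836_a_at (0.0964). From a nearly constant value it cannot be read whether a transcript differed with the diet. Near constancy does not show absence either. The means of the 10 ran from 5.53 to 9.82, the highest being Cnr1 1434172_at, above 98% of all probe sets. Whether the tissue held each transcript was not tested.

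**Figure D1:**
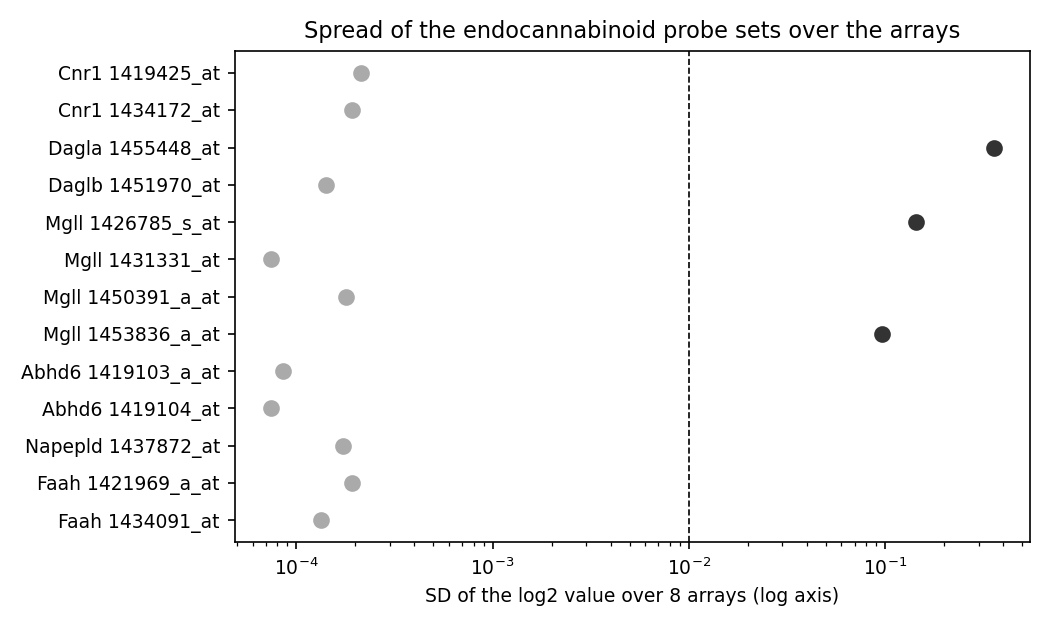
SD of the log2 value over the 8 arrays (log axis) for each of the 13 probe sets, with the limit of 0.01 as a dashed line. The 3 dark points, at 0.0964 to 0.358, are measured and the 10 grey points, at 7.4e-05 to 0.000214, are not.

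Cnr1 encodes CB1, the G protein-coupled receptor through which both lipids act in the brain. Both of its probe sets were unmeasured. For 1434172_at the log2 values were 9.8185, 9.8185, 9.8187 and 9.8187 in RA 1 to RA 4, against 9.8189, 9.8189, 9.8189 and 9.8187 in control 1 to control 4. For 1419425_at they lay between 6.8158 and 6.8163 in the RA arrays and between 6.8159 and 6.8164 in the control arrays. The groups did not overlap in 1434172_at, but they differed by only 0.0003 on the log2 scale. Over all probe sets 5.83% had groups that did not overlap, and neither this nor the unadjusted limma p of 0.00416 (adjusted p = 0.333) is read as a change in Cnr1.

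Dagla encodes diacylglycerol lipase alpha, the main enzyme of 2-AG synthesis at hippocampal synapses. The values of its probe set 1455448_at were spread more widely than those of any other member, and the spread did not follow the diet. The log2 value was 7.77, 7.40, 8.23 and 8.10 in RA 1 to RA 4, against 7.31, 8.17, 8.14 and 7.77 in control 1 to control 4. RA 2 and control 1 were low, RA 3, RA 4, control 2 and control 3 were high, and the groups overlapped over nearly their whole range. The mean was 7.88 ± 0.368 (SD, n = 4) in the RA group and 7.85 ± 0.403 (SD, n = 4) in the control group. The log2 fold change was 0.03 (standard error 0.262, 95% interval -0.60 to 0.66, adjusted p = 0.982 from limma). On the linear scale this interval runs from 0.66 to 1.58 times the control level, so changes of such a size in either direction were not detectable with these arrays. RA 3, the highest array, was at 1.89 times the level of control 1, the lowest, while the group means differed by 1.02 times. The direction rests on single arrays, as the log2 fold change was -0.09 without RA 3, -0.05 without RA 4 and -0.15 without control 1.

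Daglb, the second diacylglycerol lipase, has 1 probe set, 1451970_at, and it was unmeasured. Its log2 values lay between 6.3982 and 6.3986 in the RA arrays and between 6.3982 and 6.3984 in the control arrays.

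Mgll encodes monoacylglycerol lipase, the main 2-AG hydrolase of the brain, and has 4 probe sets, of which 2 were measured. Only 1426785_s_at was called higher in the RA group. Its log2 value was 8.94, 8.74, 8.98 and 8.93 in RA 1 to RA 4, against 8.56, 8.84, 8.73 and 8.71 in control 1 to control 4. All RA arrays lay above the control mean, and 15 of the 16 RA minus control differences were positive, the exception being RA 2 against control 2. The groups overlapped through these 2 arrays. The mean was 8.90 ± 0.106 (SD, n = 4) in the RA group and 8.71 ± 0.115 (SD, n = 4) in the control group. The log2 fold change from limma was 0.19 (standard error 0.0751), which is 1.14 times the control level. Its 95% interval, which is not adjusted for the number of probe sets, ran from 1.01 to 1.29 times.

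This call rests on the rank product, the test named in the Methods, which ranks the 16 differences of each probe set among those of all probe sets and does not weigh a probe set's own spread. The call needed an estimated proportion of false positives below 0.05. For Mgll 1426785_s_at the estimate was 0.0445 in the main draw of the permutations and 0.0409 to 0.0445 over 10 draws. Of the 13 member probe sets 1 was called, in the higher direction. Over all probe sets 0.888% were called higher and 0.577% lower (1.47% in either direction), and all of the called probe sets were among the 3758 with an SD above 0.01, of which 10.6% were called higher and 6.92% lower. limma, which weighs the spread, did not call it (unadjusted p = 0.0426, adjusted p = 0.481), and called 0% of all probe sets. limma gave 3 of the 13 member probe sets an unadjusted p under 0.05, of which 2 are unmeasured, and it did so for 10.1% of all probe sets. When only measured probe sets are counted, this was 1 of 3 for the members and 9.66% for the whole table. The exact permutation test gave a 2-sided p of 0.0571 (adjusted p = 0.555 over all probe sets), where 0.0286 is the smallest that 4 against 4 arrays allow.

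In the 3758 measured probe sets of the table, 573 (15.2%) showed a log2 fold change in the same direction at least as high as that of Mgll 1426785_s_at. Among these probe sets 73.1% had their higher mean in RA arrays (median log2 fold change 0.07), and the part of this lean in the value of Mgll was not tested. The call was lost without RA 1, RA 2, RA 3 or RA 4 (estimates of 0.133 to 0.157) and without control 4 (0.0523). It was also lost when only probe sets with a mean above the median were ranked (0.136) or ranks were summed instead of multiplied (0.128). With only the 3758 measured probe sets ranked the estimate was 1.09, so the call needed the nearly constant probe sets in the ranking. The log2 fold change stayed between 0.14 and 0.24 in all 8 fits that leave out 1 array.

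Of the other probe sets of Mgll only 1453836_a_at was measured, and its difference was smaller. In 1453836_a_at the log2 value was 7.91, 7.73, 7.80 and 7.99 in RA 1 to RA 4, against 7.73, 7.90, 7.76 and 7.83 in control 1 to control 4. RA 4 was highest and RA 2 lowest of all arrays, and the groups overlapped widely. The mean was 7.86 ± 0.117 (SD, n = 4) in the RA group and 7.81 ± 0.0784 (SD, n = 4) in the control group. The log2 fold change was 0.05 (standard error 0.0677, 95% interval -0.11 to 0.21, adjusted p = 0.823 from limma), and the probe set was not called. This interval includes the 0.19 of 1426785_s_at. Both measured probe sets had RA 2 as the lowest RA array, control 1 as the lowest control array and control 2 as the highest. The remaining 2 were unmeasured, 1450391_a_at at 8.4868 to 8.4873 and 1431331_at at 5.5271 to 5.5273. The annotation gives 1431331_at and 1453836_a_at the same source sequence, so probes against 1 sequence were measured in 1 probe set and not in the other. By the manufacturer's naming, the ending _a_at marks probes shared by transcripts of the same gene and _s_at marks probes that can match transcripts of more than 1 gene. Signal from another gene in 1426785_s_at was not tested.

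**Figure D2:**
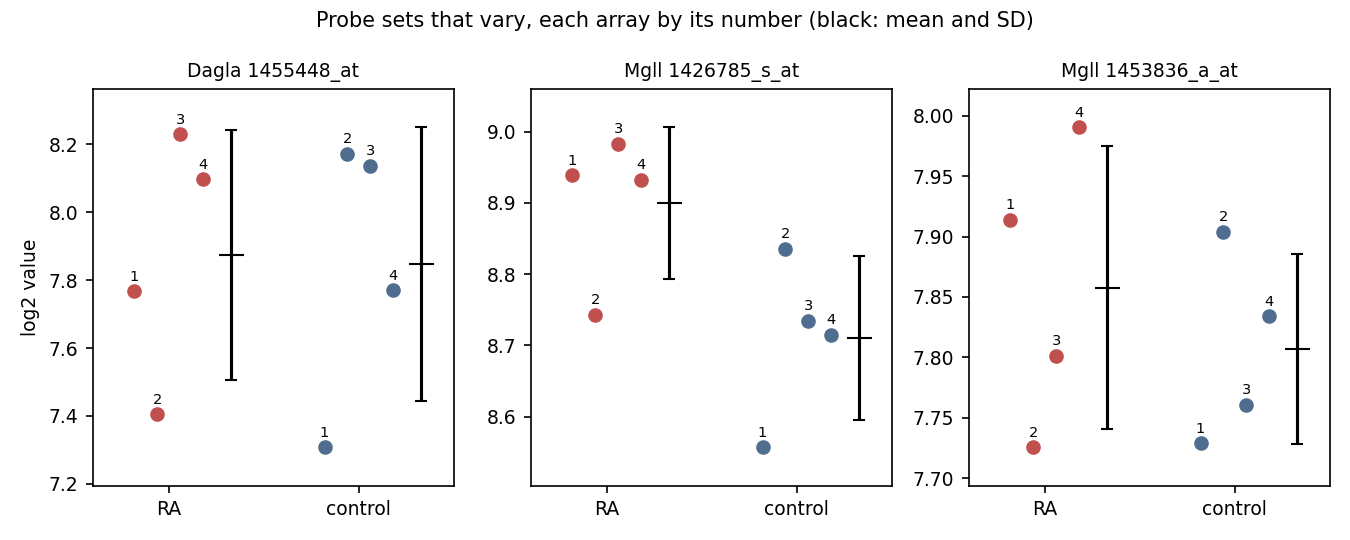
Log2 values of the 3 measured probe sets on each array (points, with the array number), RA left and control right, with the mean and SD of 4 arrays in black. The RA and control arrays overlap in each panel, least in Mgll 1426785_s_at, where 15 of 16 differences are positive, and most in Dagla, where 8 of 16 are.

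Abhd6 encodes a membrane serine hydrolase that breaks down 2-AG on the postsynaptic side. Both of its probe sets were unmeasured, with log2 values of 8.4124 to 8.4126 for 1419103_a_at and 7.4231 to 7.4233 for 1419104_at over all arrays. Napepld encodes the phospholipase D that releases anandamide and related amides from their membrane precursors. Its probe set 1437872_at lay between 6.9277 and 6.9279 in the RA arrays and between 6.9275 and 6.9281 in the control arrays. Faah encodes the hydrolase that ends anandamide signaling. Its values lay between 7.3886 and 7.3892 for 1421969_a_at and between 6.7666 and 6.7670 for 1434091_at, again with no measure of a difference. The anandamide side of the system was therefore not measured by any probe set that names these genes.

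In Dagla the arrays differed along with some markers of cell types and regions. RA 2 and control 1, the lowest arrays in Dagla, were also the lowest in the marker lists of pyramidal neurons, dentate granule cells and oligodendrocytes. For the pyramidal list, of which 6 of 7 genes with a probe set were measured, the mean log2 deviation from the average of all arrays was -0.38 in RA 2 and -0.25 in control 1 and at most 0.22 in the others, which all lay higher. For oligodendrocytes (7 of 7 genes) it was -0.92 in RA 2 and -0.72 in control 1. In the dentate list (6 of 8 genes) it was -0.48 in RA 2 and -0.33 in control 1, while in the striatal list (3 of 6 genes) these arrays were the highest, at 0.59 and 0.68. For choroid plexus (8 of 8 genes) it was -1.10 in RA 2 and -1.06 in control 1, again the lowest. Control 2 (-1.02) and control 4 were nearly as low there, although control 2 was high in Dagla. The choroid plexus list thus split the arrays in another way than Dagla. The means do not stand for every gene of a list. RA 2 and control 1 were the lowest arrays in 7 of 7 measured oligodendrocyte genes, in 4 of 6 pyramidal genes, in 3 of 6 dentate genes and in 4 of 8 choroid plexus genes. In control 1 the pyramidal gene Wfs1 (9.21) and the dentate genes C1ql2 (6.96) and Calb1 (10.47) were instead at their highest. The summed log2 values of the pyramidal list ran from 49.2 to 52.2 in the RA group and from 50.0 to 52.8 in the control group. Those of the oligodendrocyte list ran from 55.9 to 65.8 in the RA group and from 57.3 to 66.5 in the control group. These lists, out of 11, were picked after their values were seen. Their part in the spread of Dagla was not tested, and in RNA of whole tissue fewer cells of a type and less RNA per cell cannot be told apart.

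**Figure D3:**
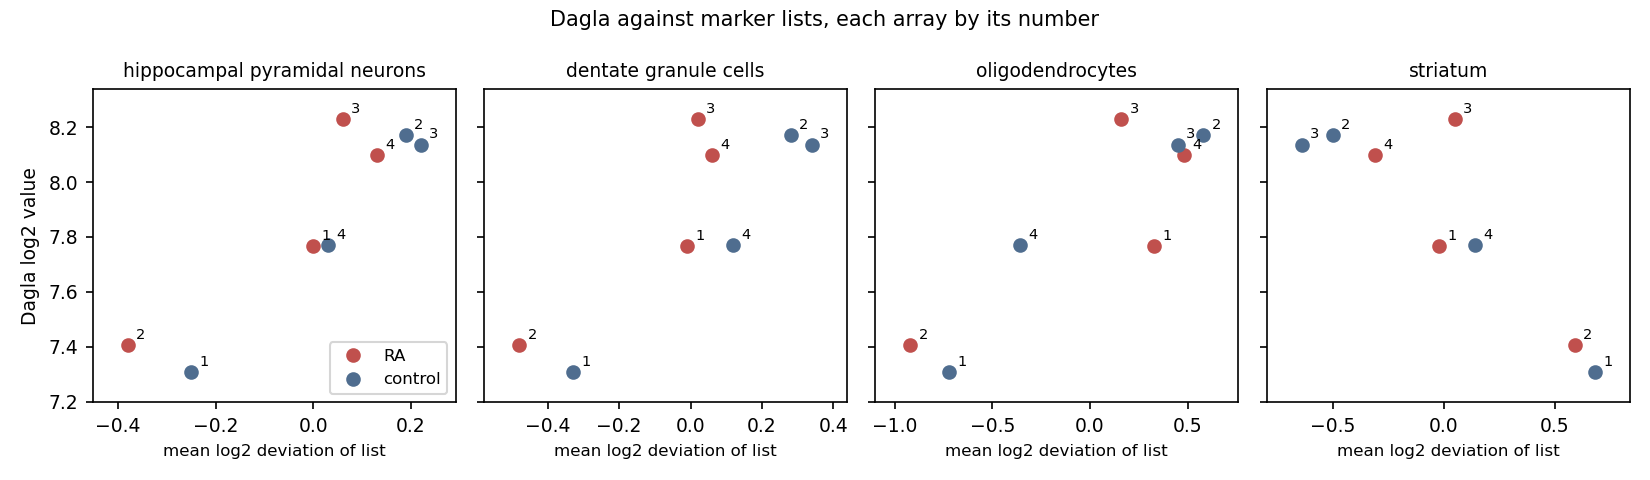
Log2 value of Dagla (vertical) against the mean log2 deviation of the measured genes of 4 marker lists (horizontal) on each array, numbered, RA in red and control in blue. RA 2 and control 1 lie at the lower left for pyramidal neurons, dentate granule cells and oligodendrocytes, and at the lower right for the striatal list.

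For the called probe set of Mgll, all 11 marker lists are given beside it, each gene again taken by the probe set with the highest mean. Of 77 genes 15 were called higher and 4 lower, while over all genes taken in this way 1.31% were called higher and 0.511% lower. These shares are not alike, as 50 of the 77 were measured and only 11.7% of all genes. Of all measured probe sets 10.6% were called higher and 6.92% lower. All 8 of 8 choroid plexus genes were called higher, and their mean deviation ran from -1.10 to 1.48 in the RA group and from -1.06 to 1.74 in the control group, a difference of 0.67. Called higher were also 3 of 8 thalamic genes (difference 0.27) and 1 gene each of endothelial cells (0.20), GABAergic neurons (0.18), the striatum (0.15) and astrocytes (0.09), cells that also make monoacylglycerol lipase. Called lower were 2 of 8 genes of dentate granule cells (-0.21), 1 of 7 of pyramidal neurons (-0.10) and 1 of 7 of oligodendrocytes (0.02). In the dentate list C1ql3 was at -0.78, and the other measured genes lay between -0.17 and 0.05. None was called among the genes of microglia (0.16) or of cholecystokinin interneurons (0.03), the cells richest in CB1, of whose 4 genes 2 were measured. These 2 went in opposite directions, Cck at -0.07 and Vip at 0.12. Deviations ran from 0.01 to 0.17 in the RA group and from -0.16 to 0.00 in the control group for GABAergic neurons, where the groups did not overlap, and in all other lists they overlapped. The GABAergic mean rests on 3 of 7 genes, Dlx1, Sst and Pvalb, and in each of these alone the groups overlapped. Gad1, Gad2, Slc32a1 and Lhx6 were unmeasured in the probe set taken. With a call in any probe set of a gene counted, 19 genes were called higher, among them 4 of astrocytes, and 6 lower. The part of these cell types in the Mgll value was not tested.

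The genes whose values were most like those of each measured probe set were taken by Pearson's r over the 8 arrays among 2495 other genes with a measured probe set. All values of r come from the same 8 arrays and are given as a description only. For Dagla they included the transcription cofactor Lmo1 (0.986) and Rasgrp1 (0.984), a Ras activator that binds diacylglycerol. Lmo1 lay at 7.32, 6.93, 7.56 and 7.56 in RA 1 to RA 4, against 6.84, 7.52, 7.57 and 7.26 in control 1 to control 4, low in the same 2 arrays as Dagla. For Mgll 1426785_s_at they were the small GTPase Rap2b (0.964), the cyclin Ccni (0.963) and the RNA helicase Ddx6 (0.952). For Mgll 1453836_a_at they were the iron-sulfur assembly gene Isca1 (0.970), Gfap (0.936), the intermediate filament of astrocytes, and Ighm (0.923), an immunoglobulin heavy chain.

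Around these members, 69 other genes of the pathway were listed by role, from textbook knowledge, and 64 have a probe set that names them alone. Taken by the probe set with the highest mean, 23 of the 64 were measured, 3 were called higher, none was called lower and 61 were not called. The shares over all genes were 1.31% higher and 0.511% lower, but only 11.7% of all genes were measured. The 3 called genes are among the 23 measured ones. Of all measured probe sets 10.6% were called higher and 6.92% lower. limma called none of the 64 (8 had an unadjusted p under 0.05). Of the 23 measured genes 22 had their higher mean in RA arrays, as had 73.1% of all measured probe sets. The median log2 fold change of the 23 was 0.14, against 0.07 over all measured probe sets. Probe sets of lower mean are outside this count, among them 1 of Scp2 and 1 of Gnaq that were called lower.

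Among 11 enzymes of other routes to endocannabinoids, Gdpd3, a lysophospholipase D, was called higher. Its log2 value was 7.11, 7.06, 7.09 and 6.96 in RA 1 to RA 4, against 6.93, 7.04, 6.79 and 6.70 in control 1 to control 4. RA 4 lay below control 2, so the groups overlapped, and the log2 fold change was 0.19 (standard error 0.0786, adjusted p = 0.494 from limma). Of the other measured enzymes of synthesis, Abhd4, which cleaves anandamide precursors, had a log2 fold change of 0.14, the acyltransferase and phospholipase Plaat3 of 0.16 and the phospholipase Ddhd1 of 0.03, none of them called. No other receptor or target with a probe set was measured either. They are Cnr2, the CB2 receptor of immune cells, the receptor Gpr18, the heat-sensing channel Trpv1 and the nuclear receptors Ppara and Pparg. Of 7 other enzymes of breakdown only Ptgs2, the inducible cyclooxygenase that oxidises 2-AG, was measured (0.01, standard error 0.194). The 2-AG hydrolase Abhd12 and the phosphatidylserine lipase Abhd16a were unmeasured.

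Fabp7, a fatty acid binding protein of astrocytes and radial glia that can carry anandamide, was called higher among 4 carriers. Its log2 value was 9.18, 9.67, 8.98 and 8.51 in RA 1 to RA 4, against 9.40, 8.07, 8.62 and 8.80 in control 1 to control 4. The groups overlapped widely, as control 1 lay above 3 of the RA arrays, and the log2 fold change was 0.36 (standard error 0.349, adjusted p = 0.757 from limma). The sterol and fatty acyl carrier Scp2 was called lower in 1 of its 4 probe sets, 1449686_s_at, at -0.44 (standard error 0.169, adjusted p = 0.469 from limma), while its other probe sets were unmeasured. Of the proteins that bind CB1, the sorting protein Gprasp1 had a log2 fold change of 0.10 and was not called, and Cnrip1 was unmeasured.

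Upstream of 2-AG, the largest of the called differences was in Gnaq, the G protein subunit that couples group I metabotropic and muscarinic receptors to phospholipase C beta. Its probe set 1428939_s_at was called lower, with log2 values of 8.71, 8.41, 8.71 and 8.45 in RA 1 to RA 4, against 8.81, 9.22, 9.21 and 8.92 in control 1 to control 4. The groups did not overlap, as in 5.59% of all measured probe sets, and the log2 fold change was -0.47 (standard error 0.127, adjusted p = 0.365 from limma). The probe sets of Gnaq differed among themselves. In 1429559_at, which has the highest mean of the 7, the log2 fold change was 0.05 (standard error 0.0728), and the remaining 5 were unmeasured. Plcb1, the phospholipase C beta of hippocampal pyramidal neurons, had a log2 fold change of -0.01 and was not called.

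Downstream of CB1, none of 15 genes of G proteins, adenylyl cyclases and kinases was called. The 10 measured ones all had log2 fold changes above 0, from 0.00 for the adenylyl cyclase Adcy1 to 0.20 for Gnb2, and the inhibitory alpha subunits Gnai2 and Gnao1 lay at 0.19 and 0.14. Of all measured probe sets 73.1% had their higher mean in RA arrays. Gnai1 was unmeasured. Of 9 channels and release proteins, the vesicular glutamate transporter Slc17a6 was called higher in both of its probe sets, at 0.38 (standard error 0.290) and 0.37 (standard error 0.243). It is also a marker of the thalamus and stands in that list too. The release protein Rims1 (0.16) and the potassium channel Kcnj9 (0.10) were not called.

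**Figure D4:**
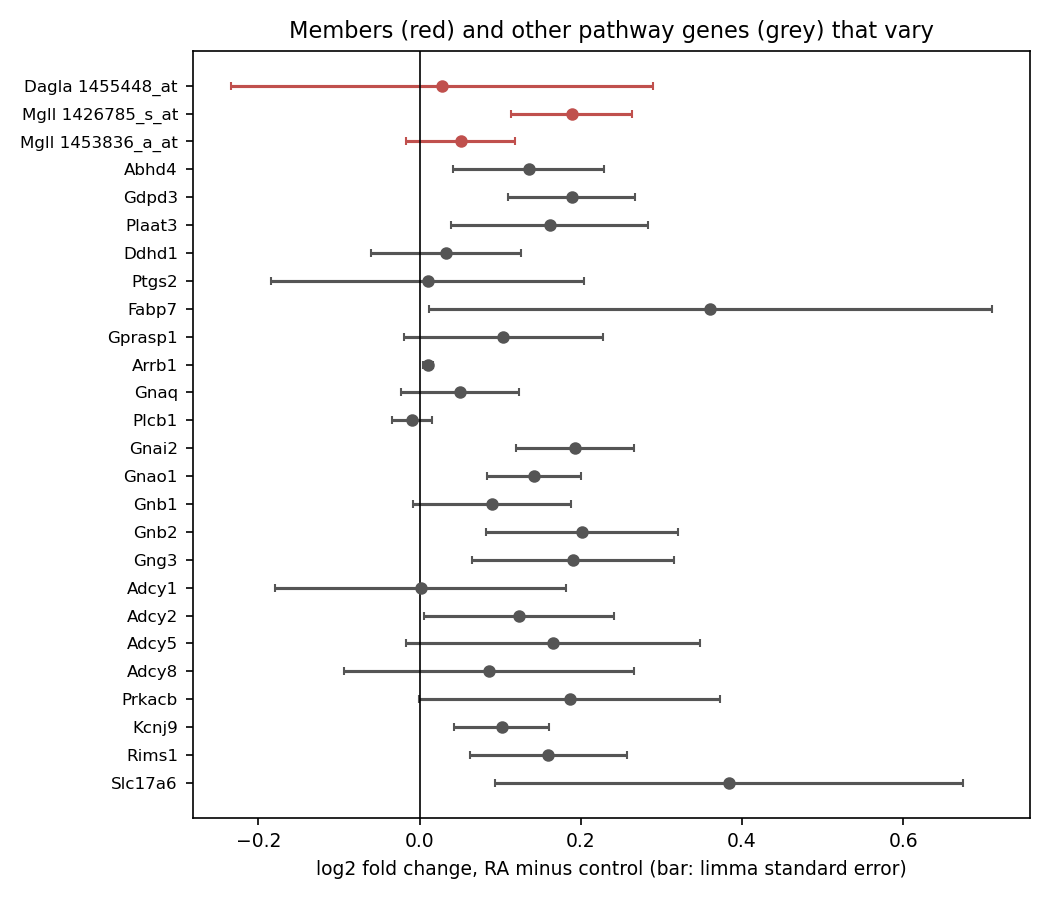
Differences of the group means on the log2 scale (RA minus control, 4 arrays in each group) for the 3 measured probe sets of the members (red) and for the 23 measured pathway genes by their probe set with the highest mean (grey), with bars for limma's standard error. All but Plcb1 lie above 0, and the bars of Dagla, Mgll 1453836_a_at and many others cross it. The probe sets Scp2 1449686_s_at and Gnaq 1428939_s_at, which were called lower, are not shown.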

How the data were processed

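The deposited log2 values are FARMS summaries, 1 per probe set and array, which the authors made in R. How arrays were scaled to each other is not stated in the sources used here. The log2 values of 45037 probe sets were used as deposited, after 64 control probe sets were left out. Array medians lay at 5.83 to 5.84, the RA arrays being the higher. Gene names are those of the platform annotation, brought up to date through the RefSeq gene table. Of the probe sets, 932 name several genes and were left unnamed, as were 9160 with no gene. No sequences are shown.

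The rank product (2 unpaired groups, 100 permutations within arrays, threshold 0.05 in each direction) was written in Python 3.11.15. limma 3.58.1 in R 4.3.3 gave log2 fold changes (RA minus control), standard errors and p-values with Benjamini-Hochberg adjustment over all probe sets. Both were also run on simulated data in which the probe sets varied independently, unlike in these arrays. No result here rests on that run. Single probe sets were compared with an exact permutation test. The pathway genes shown are those called, or the 2 with the highest mean in lists without a call; further measured ones were named after their values were seen. The members and lists were chosen with earlier results of these data known. Alternatives were quantile normalization, median subtraction, filters on low means (at or under the median) and on low SD, leaving out each array, a replicate block, ranks summed instead of multiplied (rank sum), a threshold of 0.01, limma, its trend and array weights, and the methods' t-test. Other draws of the permutations were added after the data were seen. Of the genes most like Dagla, 1 is not reported here.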

Additional observations from a re-analysis of the deposited data

How the results depend on the processing

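The rank product called 1 of the 13 endocannabinoid probe sets and 3 of the 64 pathway genes. It called 0 of either with the filter on low means, with all other probe sets at or under an SD of 0.01 left out, with the rank sum, at the threshold of 0.01 or with limma in its place. Without any 1 array, 0 to 1 probe sets and 0 to 9 pathway genes were called, the highest count being without control 1 and the count being 0 without any RA array. The methods' t-test gave 2 of the 13 an unadjusted p under 0.05, both of them unmeasured, and 0 after adjustment. The called Mgll probe set was not among the 2. If a call in any of its probe sets counts for a gene, 5 pathway genes were called. The 9 other draws of the permutations called the same Mgll probe set each time. limma called 0 of the 13 as deposited, 7 after quantile normalization and 11 after median subtraction, where the nearly constant values of all probe sets are moved together, so these counts say nothing about the genes; it called 0 in its other fits. The log2 fold change of Dagla lay between -0.15 and 0.18 without any 1 array, and turned to -0.09 without RA 3, -0.05 without RA 4 and -0.15 without control 1, and those of both measured Mgll probe sets kept their sign under every alternative. With the replicate block 0 endocannabinoid probe sets and 0 pathway genes were called. The numbers share no stated litter or batch and are not taken as a pairing of the samples. The deviations of same-numbered arrays correlated at -0.12, -0.33, 0.45 and -0.39. For arrays with other numbers the correlations ran from -0.70 (RA 2 with control 3) to 0.74 (RA 2 with control 1).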
